A study of Mus musculus with 12 samples.

Results

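The 8 genes described here encode the MHC class II presentation machinery: H2-Aa, H2-Ab1, H2-Eb1, H2-DMa, H2-DMb1, H2-DMb2, Cd74 and Ciita. They were selected on measured values, because their counts varied strongly between libraries of these data, and they are 8 of the 34245 rows of the count table. RNA-seq was run on Lgr5+ stem cells of the intestine (ISC) and on adult enterocytes (AE) sorted from the small intestine of male C57BL/6 mice that all carried the Lgr5-EGFP-IRES-CreERT2 knock-in, which puts GFP under the Lgr5 promoter. The study asked which genes change in these cells between younger mice (about 33 weeks) and old mice (about 27 months). Each of the 4 groups (young ISC, aged ISC, young AE and aged AE) held 3 libraries. ISC were GFP-high crypt cells sorted without staining, so leukocytes were not gated out by CD45, whereas AE were Epcam-high villus cells negative for CD31 and CD45. A library came from 60000 to 100000 sorted cells.

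MHC class II molecules are heterodimers of an alpha and a beta chain that carry peptides from endosomes to the cell surface and show them to CD4+ T cells. H2-Aa and H2-Ab1 encode the alpha and beta chains of I-A. H2-Eb1 encodes the beta chain of I-E, whose alpha chain is not made in C57BL/6 mice. Cd74, the invariant chain, fills the groove of new dimers and guides them to endosomes, and H2-DM, a dimer of H2-DMa with an H2-DMb chain, exchanges its remnant for other peptides. Ciita is the transactivator that switches the whole set on. It is recruited by RFX, CREB and NF-Y proteins on class II promoters, and interferon-gamma, through Jak kinases and Irf1, is the usual inducer of Ciita outside professional antigen-presenting cells. Enterocytes and Lgr5+ stem cells are among the epithelial cells known to carry class II.

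Libraries are called by the codes in the column names of the count table: Y1, Y2 and Y3 for young mice and O1, O3 and O5 for aged mice, each with an ISC and an AE library. In 8 of 12 sample titles the code and the spelled-out group name different groups, and libraries were therefore grouped by their own column names. Marker genes matched the cell type of each column name. Summed stem cell markers (Lgr5, Olfm4, Ascl2, Smoc2 and Axin2) lay at 4283 to 6297 CPM (counts scaled to the effective library size) in the ISC libraries and at 45.6 to 441 CPM in the AE libraries. Summed markers of enterocytes lay at 1152 to 7721 CPM in ISC and at 51054 to 83842 CPM in AE. The age in the codes could not be checked in this way. Library totals were 11893817 to 26796461 counts in 11 libraries and 110794420 in Y3 AE, and 3 counts, taken as the detection floor, corresponded to 0.0359 to 0.327 CPM.

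Short stretches upstream of 4 class II genes are shown, because the genes behind the first pair moved together at high counts whereas those behind the second pair stayed between 0 and 10 counts. They are RefSeq sequences of GRCm38.p6, written in the direction of the gene and ending before its listed start. Capitals mark ATTGG, the inverted CCAAT core bound by NF-Y, and, where present, ACNGATG, the core of the X box read by RFX.
H2-Aa: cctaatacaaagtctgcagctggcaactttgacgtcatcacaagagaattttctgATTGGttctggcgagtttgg
H2-Eb1: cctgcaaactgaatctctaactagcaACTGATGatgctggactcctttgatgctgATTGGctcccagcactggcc
H2-DMb2: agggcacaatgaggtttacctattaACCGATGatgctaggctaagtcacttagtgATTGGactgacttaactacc
H2-Eb2: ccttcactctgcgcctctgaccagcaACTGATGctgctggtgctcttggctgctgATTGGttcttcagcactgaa

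The stretches lie at chr17:34287852-34287926 (minus strand) for H2-Aa, and on the plus strand at chr17:34305753-34305827 for H2-Eb1, chr17:34145104-34145178 for H2-DMb2 and chr17:34325520-34325594 for H2-Eb2. H2-Eb2, a further class II beta chain gene that is not among the 8, is shown for contrast. Both motifs, in this order on one strand with 12 to 28 bases between them, were found in H2-Eb1 (22 bases between them), H2-DMb2 (23), H2-Eb2 (22) and also H2-DMb1 (23), where the stretch overlaps an annotated 5′ UTR and is not printed. The H2-Aa window held ATTGG at 48 bases before the start but not ACNGATG followed by it. On either strand the ordered pair occurred in 45 of 32851 promoter windows of the same length (0.137%), ACNGATG in 9.85% and ATTGG in 37.4%. The pair was thus found at genes with high counts and at genes with almost none, and was not found in the windows of others of both kinds. Only this spelling of the X box core was searched, so a window without it may hold another form. Windows were matched for 5 of the 8 genes, counting H2-DMa, which had 2. These ended at 34122881 and 34125567, before the start of its row at 34135182, so the stretch next to that start was not searched. Neither held the ordered pair, nor did the windows of H2-Oa and H2-Ob, genes of the H2-DM inhibitor H2-O with few or no counts. H2-Ab1, Cd74 and Ciita had no entry.

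The genes lie on chromosome 17 (H2-Aa at 34282744-34287827 on the minus strand, H2-Ab1 at 34263209-34269418, H2-Eb1 at 34305877-34316199, H2-DMa at 34135182-34139101, H2-DMb2 at 34143307-34151553 and H2-DMb1 at 34153072-34160230), chromosome 18 (Cd74 at 60803848-60812646) and chromosome 16 (Ciita at 10488178-10527564), in GRCm38 as the count table gives them. Counts cover the merged exons of each gene. The paralogs H2-DMb1 and H2-DMb2 share part of their sequence: 22.7% of the 50-base runs in H2-DMb1 transcripts also occur in transcripts of another class II gene, and 21.2% of those of H2-DMb2. Since reads were 50 bases long and only uniquely mapped reads were used, counts of both genes may be low for that part. The other class II chain genes examined shared no 50-base run. Ciita overlaps the row of Dexi, which lies on the opposite strand, and whether strand was used in the counting is not given in the sources used here.

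The libraries of code Y3 were the lowest of their cell type for all 7 genes that rose above the detection floor throughout, in ISC and in AE alike. H2-DMb2, with 0 to 10 counts in every library, could not be followed. The other 5 libraries of each cell type were far closer together. H2-Aa, the alpha chain of I-A, was at 267 CPM in Y1, 251 in Y2, 2.25 in Y3, 397 in O1, 80.4 in O3 and 157 in O5 among the ISC libraries. In AE the same gene was at 1281 CPM in Y1, 1334 in Y2, 24.9 in Y3, 1992 in O1, 1652 in O3 and 1784 in O5. The lowest other ISC library (O3) was thus 35.8-fold above Y3, and the lowest other AE library (Y1) 51.5-fold. Behind the Y3 values stood 40 counts in ISC and 2079 counts in AE, the second from the most deeply sequenced library, so the low level was not a matter of few counts there.

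**Figure D1:**
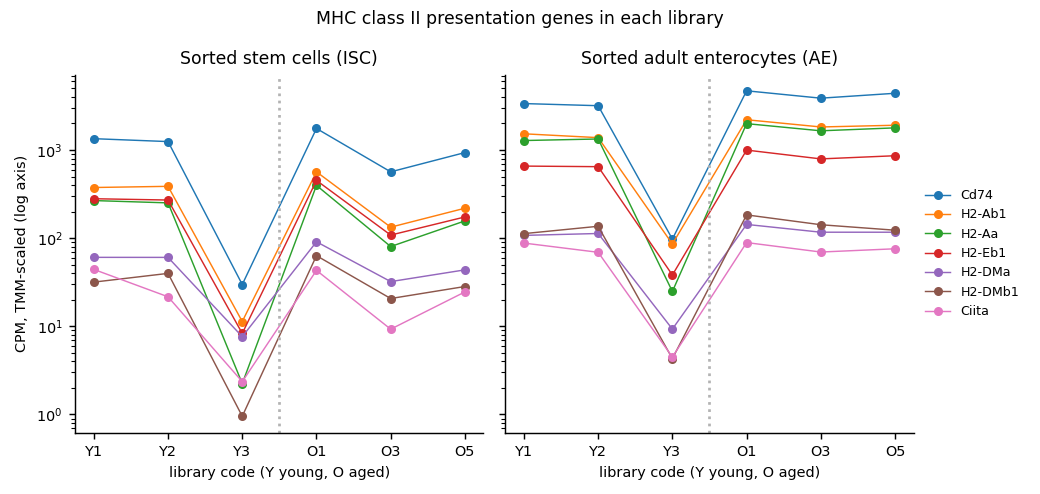
Level of 7 class II genes in each ISC library (left) and AE library (right), in TMM-scaled CPM on a log axis. Each point is 1 library, lines join the points of 1 gene, and the dotted line parts young from aged; all 7 genes dip at Y3 in both panels, H2-Aa to 2.25 CPM in ISC and 24.9 CPM in AE.

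H2-Ab1, the partner chain of H2-Aa, followed the same course. Its ISC levels were 376 CPM in Y1, 387 in Y2, 11.3 in Y3, 566 in O1, 133 in O3 and 219 in O5. Its AE levels were 1528, 1382, 85.9, 2206, 1826 and 1910 CPM in the same order of codes. H2-Ab1 in Y3 lay 11.8-fold below the next ISC library and 16.1-fold below the next AE library, a smaller gap than for H2-Aa. H2-Eb1 was at 280, 271, 8.31, 452, 108 and 174 CPM in the ISC libraries Y1, Y2, Y3, O1, O3 and O5. In AE it was at 657, 647, 38.2, 998, 793 and 861 CPM. It was therefore transcribed at levels near those of the I-A chains, although its product has no alpha chain to pair with in this strain.

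Cd74 was the most abundant of the set. It was at 1345 CPM in Y1, 1247 in Y2, 29.8 in Y3, 1755 in O1, 565 in O3 and 936 in O5 among ISC, and at 3365, 3183, 97.7, 4696, 3874 and 4402 CPM among AE. The gap between Y3 and the next library was 19.0-fold in ISC and 32.6-fold in AE. Per kilobase of exon, Cd74 stood above H2-Ab1 and H2-Eb1 in 6 of 6 ISC and 6 of 6 AE libraries, with means (± SD, n = 3 each) per kb of 522 ± 438 CPM for young ISC and 649 ± 364 CPM for aged ISC. The AE means were 1324 ± 1097 CPM per kb for young and 2585 ± 249 CPM per kb for aged libraries. The large SD in the young groups came with the Y3 libraries.

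The peptide-loading genes were lower. H2-DMa was at 60.6, 60.5, 7.64, 91.0, 32.2 and 43.7 CPM in the ISC libraries Y1, Y2, Y3, O1, O3 and O5 and at 108, 113, 9.30, 143, 117 and 117 CPM in AE. It showed the smallest AE gap at Y3 of the 7 genes, 11.6-fold, and a gap of 4.21-fold in ISC. H2-DMb1 was at 31.7, 39.9, 0.954, 63.3, 20.7 and 28.3 CPM in ISC and at 113, 136, 4.31, 184, 142 and 123 CPM in AE. Its fall at Y3 was steeper than that of its partner, 21.7-fold below the next library in ISC and 26.2-fold in AE. H2-DMb2 had 2, 3, 0, 10, 0 and 1 counts in ISC and 1, 4, 2, 10, 0 and 10 counts in AE. In these cells the measured H2-DM beta chain transcript was thus almost entirely H2-DMb1, within the limit on shared sequence given above.

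Ciita, the transactivator of the set, was at 44.2 CPM in Y1, 21.6 in Y2, 2.36 in Y3, 43.1 in O1, 9.28 in O3 and 24.6 in O5 among ISC, and at 88.0, 69.2, 4.48, 89.2, 69.6 and 75.8 CPM among AE. Y3 was 3.94-fold below the next ISC library, the smallest ISC gap of the 7, and 15.4-fold below the next AE library. The transactivator and its target genes were therefore low in the same libraries. In ISC, O1 was the highest library for 6 of the 7 genes, the exception being Ciita, which was highest in Y1, and O3 was the second lowest for 7 of 7. In AE, O1 was the highest for 7 of 7, and the library next above Y3 was Y1 for 3 genes and Y2 for 4.

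The order of the genes by level per kilobase of exon was nearly the same in every library. After Cd74 came H2-Eb1, H2-Ab1 and H2-Aa in ISC (6 of 6 libraries for each step). In AE the order was H2-Ab1, H2-Eb1 and H2-Aa (6 of 6). The 2 beta chain genes thus changed places between the cell types, but on this scale only. In CPM, H2-Ab1 was above H2-Eb1 in every library. The exon lengths used were 2418 bases for H2-Ab1 and 1459 bases for H2-Eb1. H2-DMb1 and H2-DMa were neighbours without a fixed order: H2-DMb1 was the higher in 4 of 6 ISC libraries and 5 of 6 AE libraries. H2-Aa stood above H2-DMa in every library but Y3 ISC, where H2-Aa was at 0.591 CPM per kb and H2-DMa at 2.88. Mean levels of H2-DMb1 and H2-DMa were 22.3 ± 13.5 and 21.0 ± 11.8 CPM per kb in aged ISC and 89.0 ± 18.4 and 47.4 ± 5.74 CPM per kb in aged AE (SD, n = 3). Ciita stood below both in all 12 libraries, with 3.09 ± 2.04 CPM per kb in aged ISC and 9.41 ± 1.20 in aged AE, and H2-DMb2 was last. In ISC and in young AE the mean ± SD ranges of neighbours overlapped, except between Ciita and H2-DMb2 and, in aged ISC, between H2-DMa and Ciita, so there the order rests on the comparison within each library. In aged AE no neighbours overlapped. These levels depend on exon lengths taken from GENCODE M21 within the range of each row.

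A low value in both Y3 libraries was rare among all genes. Of 12642 genes with a mean of at least 1 CPM, and counting only those at 1 CPM or more in all other libraries, 9 were at least 2-fold below every other library of the same cell type in both Y3 ISC and Y3 AE, and these were the 7 class II genes, Nlrc5, the transactivator of MHC class I genes, and Ceacam10. At 4-fold there were 7 genes, of which 6 were class II genes (Ciita was just outside, at 3.94-fold in ISC, and H2-DMa just inside, at 4.21-fold) and 1 was Nlrc5. At 8-fold there were 5, H2-Aa, H2-Ab1, H2-Eb1, H2-DMb1 and Cd74. For the other codes, the number of genes 4-fold below every other library in both cell types was 0 for Y1, Y2, O1 and O3 and 2 for O5 (Pdx1 and Slc16a9), neither of them among the 8. The members were picked for their spread, so these counts describe how the low values were shared and test nothing. In SD of log2 CPM over the 6 libraries of a cell type, H2-Aa ranked number 2 of 12642 in ISC (SD 2.65) and number 8 in AE (SD 2.45), and H2-DMa, the least variable of the 7, ranked number 103 in ISC (SD 1.23) and number 60 in AE (SD 1.48).

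Class II transcripts were higher in AE than in the ISC library of the same code for each of the 7 genes and each of the 6 codes. The ratio for H2-Aa was 4.80 in Y1, 5.31 in Y2, 11.1 in Y3, 5.02 in O1, 20.6 in O3 and 11.4 in O5. For Cd74 it was 2.502, 2.55, 3.28, 2.68, 6.85 and 4.71, and for Ciita 1.99, 3.20, 1.90, 2.07, 7.501 and 3.09. The smallest ratios belonged to H2-DMa, from 1.22 in Y3 to 3.63 in O3. Code O3 had the highest ratio for these 4 genes. Its ISC library was low in class II whereas its AE library was not, which set it apart from Y3, where both were low.

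**Figure D2:**
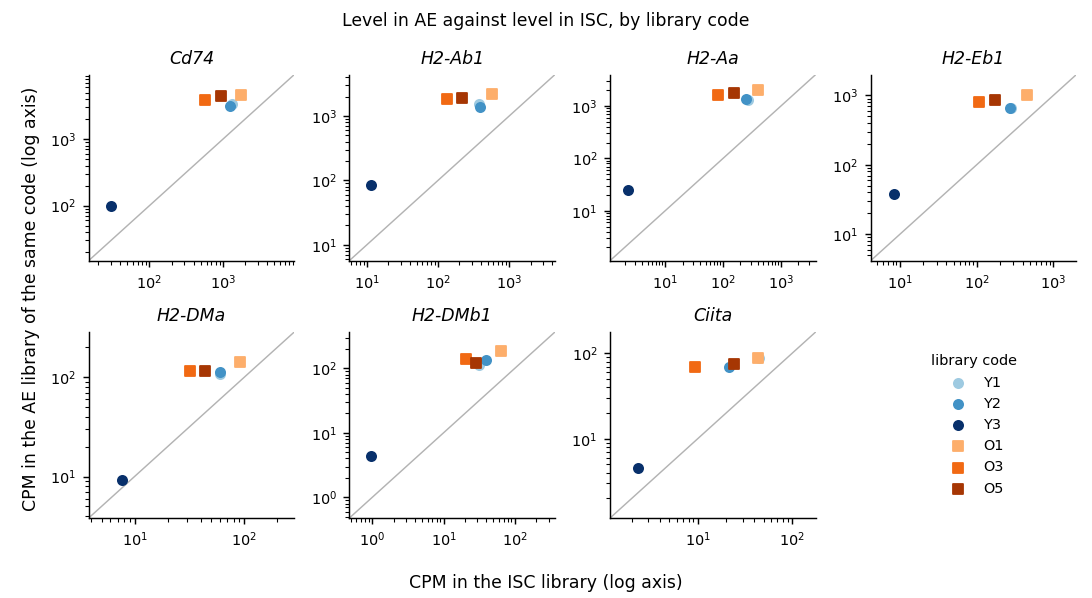
CPM of each class II gene in the AE library (vertical, log axis) against the ISC library of the same code (horizontal, log axis). Circles are young and squares aged codes, and the grey line marks equal levels; every point lies above the line, Y3 lies at the lower left, and O3 lies left of the other aged codes at a like AE level, with an AE to ISC ratio of 20.6 for H2-Aa.

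As fitted by edgeR, the log2 fold changes of AE against ISC in aged mice were 3.03 (SE 0.50) for H2-Aa, 2.62 (0.47) for H2-Ab1, 1.92 (0.39) for Cd74 and 1.92 (0.37) for H2-DMb1. Those of H2-Eb1, Ciita and H2-DMa were 1.78 (0.44), 1.53 (0.42) and 1.10 (0.33). All aged AE libraries were above all aged ISC libraries for 7 of the 8 genes, beside 33.4% of the 15855 genes tested. In young mice the log2 fold changes were of similar size, 0.83 to 2.34 over the 7 genes, but had SEs of 0.92 to 1.54. Groups overlapped for 8 of 8 genes, since Y3 AE lay below Y1 and Y2 ISC, where all AE were above all ISC for 32.3% of 16681 genes tested. Without the Y3 libraries the log2 fold changes in young mice were 0.87 to 2.34 with SEs of 0.20 to 0.34. With the code as a replicate block, which compares ISC and AE within each code, H2-Aa was at 2.65 (SE 0.27), Cd74 at 1.46 (0.22) and Ciita at 1.22 (0.20). The number of the 8 genes past the adjusted threshold of 0.05 was 0 without the block, beside 53.1% of all genes tested, and 7 with it, beside 53.9%, counts from which nothing is read. The levels of the 7 genes were thus higher in enterocytes by the same measure in each of these fits, and the spread of the young groups rested on Y3. No p-value is given for these genes, because they were chosen on their spread between the same libraries.

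Between ages, class II levels in ISC overlapped for 8 of 8 genes. Mean levels were 174 ± 149 CPM in young and 211 ± 165 CPM in aged ISC for H2-Aa, 874 ± 733 and 1085 ± 609 CPM for Cd74, and 22.7 ± 21.0 and 25.7 ± 17.0 CPM for Ciita (SD, n = 3 each). Log2 fold changes of aged against young ISC ranged from 0.19 to 0.64 over the 7 genes with SEs of 0.65 to 1.13. Without the Y3 libraries they ranged from -0.34 to 0.07, with 1 of 7 above 0. Leaving out O1 ISC alone gave -0.55 to 0.03, also with 1 of 7 above 0. The direction between young and aged ISC therefore turned for 6 of 7 genes without either of these libraries. All aged libraries were above all young libraries for 0 of the 8 genes, beside 4.42% of 15552 genes tested.

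In AE, the aged group had the higher mean, but single libraries overlapped for H2-DMb1, Ciita and H2-DMb2. Means were 880 ± 741 CPM in young and 1809 ± 171 CPM in aged AE for H2-Aa, 2215 ± 1836 and 4324 ± 417 CPM for Cd74, 448 ± 355 and 884 ± 105 CPM for H2-Eb1, and 53.9 ± 43.8 and 78.2 ± 9.98 CPM for Ciita (SD, n = 3 each). All 3 aged AE libraries were above all 3 young AE libraries for 5 of the 8 genes, beside 4.01% of 16265 genes tested. The 8 genes were picked for their spread between these libraries and mostly move together, so this count and the like counts above test nothing. Log2 fold changes were 0.57 to 1.06 over the 7 genes with SEs of 0.68 to 0.96. Leaving out Y3 reduced them to 0.02 to 0.49 with SEs of 0.17 to 0.21, still above 0 for 7 of 7: 0.49 (SE 0.19) for H2-Aa, 0.47 (0.19) for H2-Ab1, 0.46 (0.18) for H2-Eb1, 0.43 (0.20) for Cd74, 0.29 (0.21) for H2-DMb1, 0.21 (0.17) for H2-DMa and 0.02 (0.18) for Ciita. The lowest of these was that of Ciita. Only Y1 and Y2 were left as young libraries in this fit, and Y3 was left out after its values were seen, so the SEs do not hold its spread. The 7 genes move together, so their shared direction is not 7 separate results. The age effect in AE minus that in ISC was 0.20 to 0.76 on the log2 scale with SEs of 1.09 to 1.72. With the code as a replicate block it was 0.26 to 0.76 with SEs of 0.30 to 0.49, among them 0.76 (SE 0.49) for H2-Aa, 0.68 (0.35) for Cd74 and 0.62 (0.30) for H2-DMa. Without Y3 it was 0.20 to 0.77 with SEs of 0.47 to 0.66. In sorted populations, fewer cells that make a transcript and less transcript per cell cannot be told apart.

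**Figure D3:**
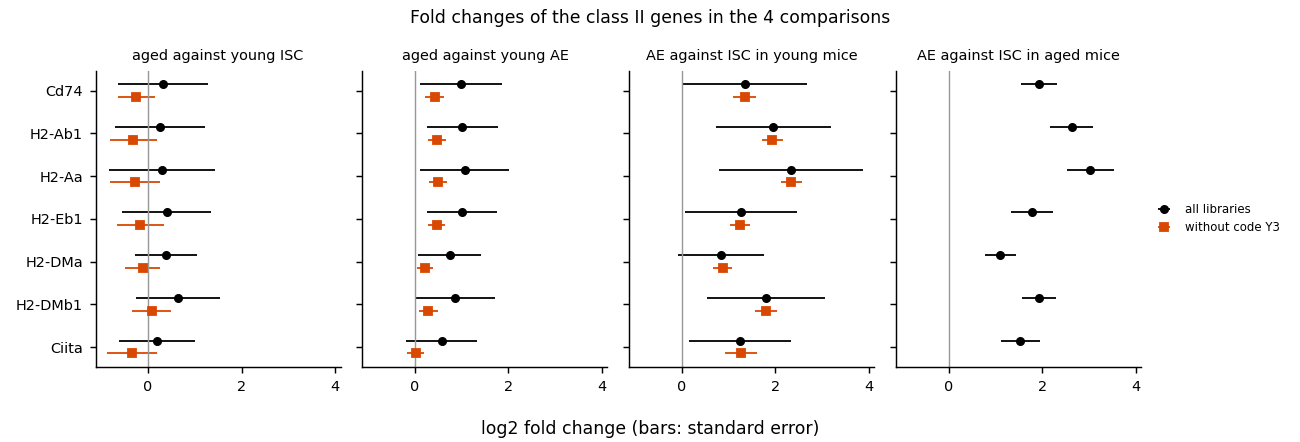
Log2 fold changes (horizontal) of 7 class II genes in 4 comparisons, from edgeR. Bars are standard errors derived from its F statistic. Black circles use all libraries and orange squares leave out the Y3 libraries; the ages in ISC lie around 0 (-0.34 to 0.07 without Y3), AE against ISC lies above 0 in both ages, and the bars shorten without Y3.

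Across all genes, the quasi-likelihood test of edgeR (Benjamini-Hochberg adjusted p under 0.05) called 0 of 15552 genes (0%) between aged and young ISC and 0 of 16265 (0%) between aged and young AE. At an unadjusted p under 0.05 there were 695 and 809 genes, and DESeq2 called 58 and 18. The age effect differed between AE and ISC for 1 of 17377 genes (0.00575%), Adora2b. AE and ISC differed far more: 53.1% of the genes tested were called in young mice (27.7% higher and 25.4% lower in AE) and 64.1% in aged mice (30% higher and 34.1% lower). These shares are the background for the other genes of the pathway, which were listed by their role and not for their spread.

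Of 39 other class II pathway genes listed, 35 had a row and 28 (ISC) or 29 (AE) had enough counts to be tested. Between ages, 0 of 28 were called in ISC and 0 of 29 in AE by edgeR, and DESeq2 called 0 in both. At an unadjusted p under 0.05 there were 0 in ISC and 1 in AE, Icosl. Their median log2 fold change was 0.01 in ISC, equal to the 0.01 of all genes tested, and 0.07 in AE beside -0.04 for all genes. For the difference of the age effect, 0 of 29 were called. Between AE and ISC, 15 of 29 were higher and 4 lower in young mice (27.7% and 25.4% of all genes), and 17 of 28 were higher and 6 lower in aged mice (30% and 34.1% of all genes). Their median log2 fold change was 0.69 in young and 0.74 in aged mice, beside 0.15 and -0.13 for all genes tested.

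Factors that bind class II promoters went mostly the other way from the class II genes. In young mice 1 of 7 was higher and 4 were lower in AE, and in aged mice 1 was higher and 5 were lower. Nfya, the sequence-specific NF-Y subunit, fell by 1.15 (SE 0.25) on the log2 scale in young mice and by 0.97 (0.16) in aged mice (edgeR adjusted p = 0.0056 and 0.00041). Rfxap, an RFX subunit, fell by 0.72 (0.17) and 0.78 (0.18) (edgeR adjusted p = 0.0084 and 0.0041). The exception was Rfxank, also a subunit of RFX, which rose by 1.35 (0.26) and 1.44 (0.17) (edgeR adjusted p = 0.0034 and 4.2e-05). Rfx5, the RFX subunit that gives the complex its name, was lower in aged mice, by 0.73 (0.19), with an edgeR adjusted p = 0.0069, and did not pass in young mice (adjusted p = 0.079). Y3 was the lowest library for 4 of the 7 factors in ISC and 3 in AE, with smaller gaps than for the class II genes. Rfx5 was the lowest at Y3 in both cell types. It was at 14.5 CPM in Y3 ISC beside 16.0 to 24.1 CPM in the other ISC libraries. In AE it was at 11.3 CPM in Y3 beside 11.7 to 14.1 CPM.

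The interferon-gamma input was higher in AE. In young mice 6 of 8 genes rose and 0 fell, and in aged mice 7 of 8 rose and 0 fell. Jak2, a kinase bound to the interferon-gamma receptor, rose by 2.15 (SE 0.20) in young and 2.51 (0.19) in aged mice (edgeR adjusted p = 0.00018 and 3.2e-06). Ifngr2, the signalling chain of the receptor, rose by 1.61 (0.25) and 1.63 (0.18) (edgeR adjusted p = 0.0012 and 2.8e-05). The receptor and kinase genes were not lowest at Y3, and Ifngr2 was highest there in both cell types, with 140.3 CPM among ISC and 427 CPM among AE libraries. Irf1, which acts on the Ciita promoter, was lowest at Y3 in ISC, at 111.3 CPM beside 132.5 to 265 CPM in the other ISC libraries. In AE it was second lowest at Y3, at 259 CPM beside 243 (O3) to 421 CPM in the other libraries.

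Endosomal processing genes were also higher in AE, with 5 of 9 higher and 0 lower in young mice and 6 of 9 higher and 1 lower in aged mice. Ctss, the protease that trims the invariant chain, rose by 1.94 (SE 0.16) in young and 2.105 (0.17) in aged mice (edgeR adjusted p = 0.00014 and 4.0e-06). It was at 47.0 CPM in Y3 ISC, within the 43.0 to 56.6 CPM of the other ISC libraries, whereas in AE it was at 200.5 CPM in Y3 and at 169.3 to 239.5 CPM elsewhere. Ctsl, a further cathepsin, rose by 1.25 (0.21) and 1.20 (0.21) (edgeR adjusted p = 0.0015 and 0.00063). Of 9 endosomal genes, Y3 was the lowest library for 0 in ISC and 0 in AE. March8, a ubiquitin ligase that removes surface proteins including class II, rose by 1.71 (0.20) and 1.87 (0.17) (edgeR adjusted p = 0.00037 and 9.4e-06), whereas March1, which does so in antigen-presenting cells, had 0 counts in all 12 libraries.

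Of the costimulatory genes listed, Cd80, Cd86, Cd40 and Pdcd1lg2 were near or at 0. Cd80 and Cd86 had 0 counts in all 12 libraries, Cd40 had at most 14 counts and Pdcd1lg2 at most 1. Cd274, which encodes the inhibitory ligand PD-L1, rose in AE by 2.06 (SE 0.49) in young and 2.06 (0.46) in aged mice (edgeR adjusted p = 0.0085 and 0.0032), at levels of only 0.594 to 6.79 CPM. Icosl, the ligand of ICOS, rose by 1.02 (0.30) and 1.06 (0.21) (edgeR adjusted p = 0.02 and 0.0015). It was at 4.03 to 10.4 CPM in ISC and at 10.5 to 19.8 CPM in AE. Of the other class II chains, H2-Oa, the alpha chain of the H2-DM inhibitor H2-O, had 0 counts in all libraries, H2-Ob at most 14 counts and H2-Eb2 at most 5. Taking all 27 pathway genes that reached 1 CPM in a library of each cell type, Y3 was the lowest library for 5 in ISC and 6 in AE, and for 2, Nfyb and Rfx5, in both.

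Other genes followed a similar course over the 12 libraries. Likeness was measured as Pearson's r between log2 CPM and the mean centred log2 CPM of H2-Aa, H2-Ab1, H2-Eb1 and Cd74. The 12 points share cell types and codes, so r is given as a description. The 7 class II genes themselves had r of 0.975 to 0.999, and 0.946 to 0.999 without Y3, values partly built in because the reference was made of 4 of them. The 10 nearest other genes of 12642 had r of 0.828 to 0.877: Psmb8 (an immunoproteasome subunit), Irgm2, Armc5, Ifi47, Gp1bb, Nlrc5, Socs1, Gbp3, Gbp2 and Igtp. Irgm2, Ifi47 and Igtp are interferon-inducible GTPases, Gbp2 and Gbp3 guanylate-binding proteins, and Socs1 the feedback inhibitor of Jak kinases. Armc5 and Gp1bb varied little, at 32.8 to 52.2 CPM and 145 to 255 CPM over the 12 libraries, since r does not measure the size of a change.

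Y3 was the lowest AE library for 10 of these 10 genes and the lowest ISC library for 9. The reference profile itself dips at Y3, so much of this is built in by the choice of genes. Without the Y3 libraries r ranged from 0.513 to 0.919 over 10 libraries, and Nlrc5 had the lowest. Nlrc5 was at 11.7, 6.47, 0.225, 14.8, 1.78 and 6.71 CPM in the ISC libraries Y1, Y2, Y3, O1, O3 and O5 and at 18.3, 9.51, 0.431, 16.2, 2.69 and 14.1 CPM in AE. It was low at O3 in both cell types, where class II was low in ISC alone. Psmb8 dipped less, to 53.2 CPM in Y3 ISC beside 105 to 392 CPM in the others, and to 149 CPM in Y3 AE beside 278 to 511 CPM. Igtp was at 39.3, 22.7, 5.89, 63.9, 8.42 and 10.4 CPM in ISC and at 261, 112, 18.7, 201, 50.1 and 71.3 CPM in AE, so that its order among the aged AE libraries was steeper than that of class II.

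**Figure D4:**
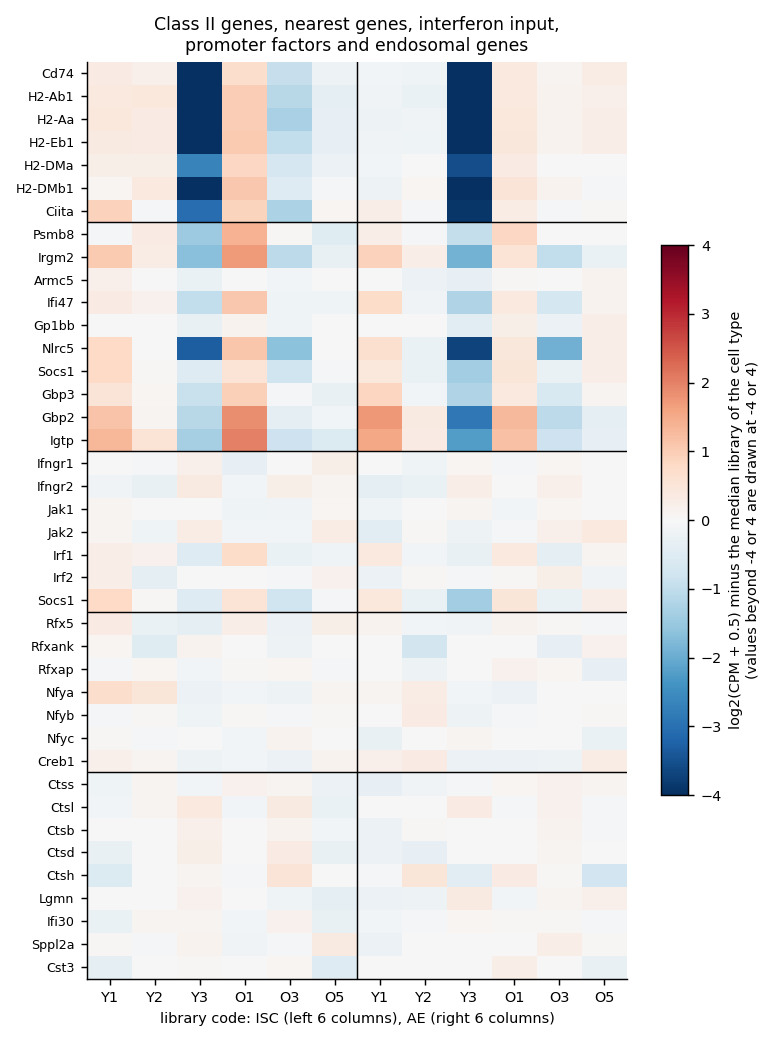
Each row is a gene and each column a library (ISC left, AE right), and colour is log2(CPM + 0.5) minus the median library of that cell type, drawn within -4 to 4. From the top the blocks are the 7 class II genes, the 10 nearest genes, the interferon-gamma input, promoter factors and endosomal genes; the darkest columns in the first block are Y3 in both cell types, joined by Nlrc5, whereas receptor, promoter factor and endosomal genes are pale.

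Class II is a hallmark of B cells, dendritic cells and macrophages, whose markers were therefore set beside it. In the ISC libraries, the summed level of the 8 class II genes was 62.7 CPM in Y3 and 950 to 3367 CPM in the others. In AE it was 265 CPM in Y3 and 6865 to 10309 CPM in the others. Markers of B and plasma cells (10 genes) summed to 0.622 to 2.33 CPM in ISC and 0.109 to 2.05 CPM in AE, with Cd79b the highest single gene at 1.87 CPM. Markers of macrophages and dendritic cells (14 genes) summed to 7.80 to 18.3 CPM in ISC and 15.1 to 29.7 CPM in AE, mostly Itgam. Itgam was at 7.24 to 22.7 CPM over the 12 libraries and Mrc1, a macrophage receptor, at 1.05 to 6.44 CPM in AE. The other 12 of these 14 stayed under 1 CPM in every library. Among them Xcr1 was at 0 throughout, and Itgax, which encodes CD11c, was at 0 in 6 of 6 ISC libraries and at 0 to 0.818 CPM in AE. The part of such cells in the class II levels was not tested.

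T cell markers (8 genes) summed to 0 to 5.86 CPM in ISC and 3.54 to 12.7 CPM in AE. General leukocyte markers (6 genes) summed to 4.22 to 21.9 CPM in ISC, with the highest value in Y3, and to 26.6 CPM in Y3 AE and 41.0 to 62.7 CPM in the other AE libraries, mostly Rac2. Ptprc, which encodes CD45, was at 3.26 CPM in Y3 ISC beside 0.577 to 2.61 CPM, and at 5.32 CPM in Y3 AE beside 7.53 to 15.1 CPM. Rac2 and Ptprc therefore moved with class II at Y3 in AE, by less, and in the opposite direction in ISC. In AE, Coro1a, Laptm5, Cd53 and Cd52 were not lowest at Y3, with 1.09, 0.550, 0.108 and 0.407 CPM there. In ISC, Laptm5, Cd53 and Cd52 were not highest at Y3. The part of leukocytes in the class II levels was not tested. Enterocyte markers summed to 7721 CPM in Y3 ISC beside 1152 to 4098 CPM in the other ISC libraries. Among ISC, that library was the highest in enterocyte transcripts and the lowest in class II. The AE library of each code was higher in class II than its ISC library, but summed class II in Y3 AE, at 265 CPM, was below every ISC library other than Y3. The part of enterocyte transcripts in the class II levels of ISC was not tested. Epithelial markers summed to 4250 to 10482 CPM and those of endothelium and stroma to 0.170 to 2.85 CPM over the 12 libraries.

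**Figure D5:**
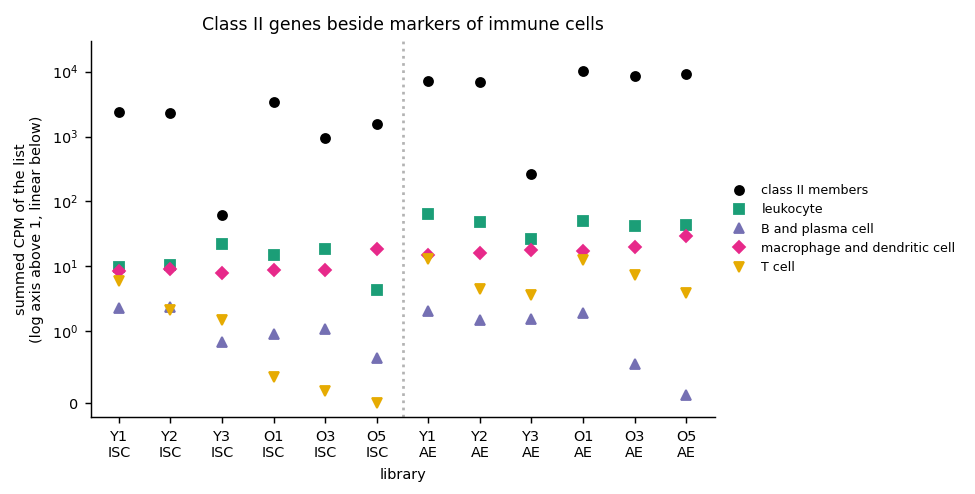
Summed CPM of the 8 class II genes and of 4 lists of immune cell markers in each library, on an axis that is logarithmic above 1 and linear below. Class II (black circles) spans 62.7 to 3367 CPM in ISC and 265 to 10309 CPM in AE and lies above every marker list in each library, most narrowly in Y3 ISC.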

How the data were processed

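Poly(A)+ RNA of 12 sorted populations was sequenced as 50 base single-end reads after 14 PCR cycles. According to the submitters' notes and methods, the authors trimmed adaptors with Trim Galore 0.4.4, mapped to GRCm38 with HISAT2 2.1.0 and counted uniquely mapped reads over merged exons with SeqMonk 1.42.0. The deposited values are raw counts per gene, one column per library. Old mice were 118 weeks of age on average. Libraries were assigned to groups by the age and cell type in their column names. The methods give 3 mice per age, and a code was taken to mark 1 mouse, which the labels do not spell out. In no pair of libraries of 1 group did the counts agree within sampling noise (chi-square per degree of freedom 29.0 to 240).

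CPM were computed with TMM factors, and log2 CPM with 0.5 CPM added. Genes that reached 10 counts in total over the fitted libraries were tested with edgeR 4.0.16 (R 4.3.3, glmQLFit and glmQLFTest, Benjamini-Hochberg, 0.05), each comparison on its own 3 against 3 libraries and the difference of age effects on all 12. The SEs given were derived from this test, as the absolute log2 fold change divided by the square root of its F statistic. The code was run on simulated counts with known changes first. Alternatives were DESeq2 1.42.0, RLE and upper-quartile scaling, other filters on low counts, a fit on all 4 groups, each library left out, the code as a replicate block, and, chosen after seeing the data, both Y3 libraries left out. Deviations from group means of ISC and AE libraries with the same code correlated at 0.231 to 0.450 in 6 of 6 pairs and at -0.425 to 0.145 in 12 pairs of different codes. Deviations within a group of 3 libraries sum to 0, so part of this contrast is built in. The codes were taken to pair the libraries, and what the libraries of a pair share was not tested. The genes named were the 8 members, listed pathway genes past the threshold with the largest changes (at most 8 per comparison) or behind a count, marker lists, and the 10 genes nearest in r. Ceacam10, Adora2b, Pdx1, Slc16a9 and the library values given for Irf1, Rfx5, Ifngr2, Ctss, Mrc1 and Ptprc were chosen after their values were seen. The members and lists were chosen with earlier results of these data known. Precision is limited by 3 libraries per group. Counts are reads without molecular identifiers, so that floors cover counting error only. One gene of the interferon-gamma input list is counted in its list but not reported here by name.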

Additional observations from a re-analysis of the deposited data

How the results depend on the processing

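The number of genes called between ages depended on the method. In ISC it was 0 with edgeR, 58 with DESeq2, 1 with no filter on low counts, 2 in the fit on all 4 groups and 0 to 1 with each library left out. In AE it was 0, 18 with DESeq2, 2 with no filter, 0 to 1 with each library left out and 1 without both Y3 libraries. For the difference of the age effect it was 1, 43 with DESeq2, 0 to 3 with each library left out and 0 without both Y3 libraries. With the code as a replicate block, 21 genes were called for that difference, none of the 8 members or the pathway genes. The pairing by code also took the number of the 8 genes past the threshold for AE against ISC in young mice from 0 to 7, and changed no other count over all genes or over the pathway genes by over 1.5 times. The cause of these shifts was not tested. Counts of pathway genes called stayed within 1.5 times in each alternative, and none of the named pathway genes reversed. Leaving out single libraries moved the log2 fold change of Cd74 to between -0.25 and 0.77 for aged against young ISC and to between 0.43 and 1.41 in AE, both ends of the AE range being set by a young library (Y3 and Y1). Upper-quartile scaling moved the median log2 fold change of all genes for AE against ISC from 0.15 to 0.03 in young mice. At 0 to 10 counts per library, H2-DMb2 gives no usable fold change.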
